A study of Homo sapiens with 6 samples.

Results

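The 44 G2/M and mitotic spindle genes described here are the cyclins, kinases, checkpoint proteins, motors and kinetochore proteins that take a cell into and through mitosis. The list was chosen by its log2 fold changes in the comparison described below, after earlier results of these data, and its members were then taken by gene symbol. All 44 were found among the 22077 symbols of the deposited count table. RNA was sequenced from 3 cultures of a human hepatocellular carcinoma line carrying a TKT expression plasmid and from 3 cultures with the vector alone, and no other treatment is given. TKT is transketolase, an enzyme of the pentose phosphate pathway, and the plasmid backbone carries GFP and puromycin resistance. The labels spell the cell line as Hu7, the study's Results name Huh7 and its Methods name HCCLM3 for the sequenced cells. Neither the labels nor the Methods say whether the overexpressing line is 1 clone, and nothing in the labels says that the cultures of a group were grown apart beyond calling them replicate biosamples.

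Entry into mitosis is driven by CDK1 bound to cyclin A or cyclin B, which WEE1-family kinases hold back and CDC25 phosphatases release. The genes of this phase are transcribed together late in the cell cycle, by the MuvB complex (to which LIN9 belongs) with MYBL2 and FOXM1, and are kept low in resting cells by the DREAM complex. Once chromosomes are attached to the spindle, the checkpoint proteins BUB1, BUB1B, MAD2L1 and TTK release CDC20, and the anaphase-promoting complex (APC) marks cyclin B and securin for destruction. In tumours the same transcripts are widely used as a measure of how actively a cell population divides.

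The libraries held between 30148788 and 37096156 counts. TKT had 9448 ± 88.0 CPM (counts scaled to the library size and by TMM factors, SD, n = 3) in the overexpressing cultures and 494 ± 23.0 (SD, n = 3) in the controls. Of 10 hepatocyte and hepatoma markers, 9 were plainly present, with summed marker levels of 21158 to 21644 CPM in the TKT cultures and 20485 to 20845 in the controls, and APOB was at 6 counts or fewer in every library. Of the fibroblast markers 4 of 7, of the endothelial markers 4 of 5 and of the leukocyte markers 4 of 6 were at 3 counts or fewer in every library or not rows of the table. The fibroblast sums were 1.81 to 3.05 CPM in TKT cells and 1.92 to 2.50 in controls, and the endothelial sums 15.2 to 19.4 and 17.2 to 20.4. The leukocyte sum was lower in TKT cells, at 114 to 123 CPM against 144 to 155, and was made almost wholly of LYZ (119 against 151 CPM on average), while CD68 and CD3E were at 2 counts or fewer. Its part in the results was not tested. In edgeR's quasi-likelihood test over 14162 genes, 10.6% of the genes had an adjusted p-value under 0.05 (Benjamini-Hochberg), 4.94% lower and 5.69% higher on TKT overexpression.

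The 44 genes sat slightly lower in TKT-overexpressing cells, and nearly all of them pointed the same way. Their median log2 fold change was -0.14, a level 9.22% lower, against a median of 0.00 over all tested genes and -0.02 over the 7619 genes whose mean log2 CPM was 4 or more. Of the 44, 40 lay below 0 and 4 above. With adjustment over all genes tested, 22 members were called lower and 2 higher, beside the 4.94% and 5.69% of all genes, and 8.41% and 7.49% of those 7619 genes. The members were listed with this comparison already known, so these counts describe the list and no support is drawn from them. No member had an absolute log2 fold change over 1, the study's limit, which with the same adjusted p-value 0.727% of all genes passed. The study, which used DESeq2, reported more genes past this limit than the 103 found here, and the difference was not tested. In 31 members every TKT culture was below every control culture and in 2 every TKT culture was above, where 13.9% and 14.1% of all genes showed these patterns. In bulk RNA a smaller share of cells in G2 or mitosis and less of these transcripts per cell cannot be told apart. The rate of division is not measured by these RNA levels. From EdU staining and colony counts the study reported more proliferation of Huh7 cells on TKT overexpression.

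**Figure D1:**
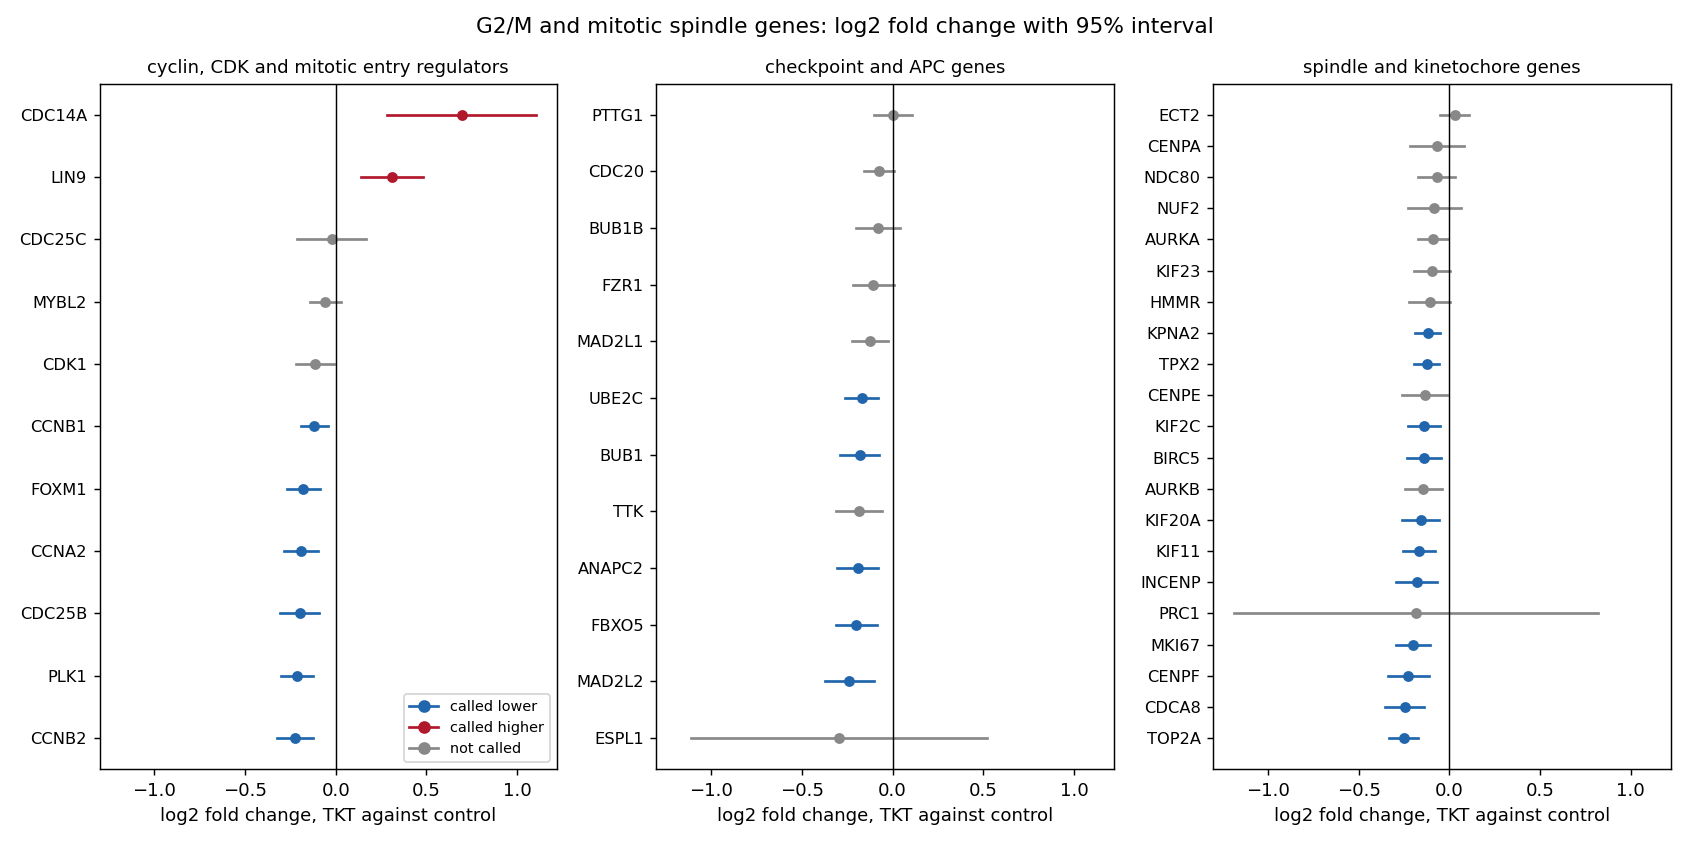
Log2 fold change (TKT overexpression against vector control, x axis) with its 95% interval for each of the 44 genes, in 3 panels by role, with blue for the 22 genes called lower, red for the 2 called higher and grey for the 20 not called. Nearly all points lie between -0.30 and 0, with LIN9 and CDC14A to the right of 0 and wide intervals for ESPL1 and PRC1.

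The shift was of like size in each TKT culture. The list was chosen by these fold changes, and values were taken relative to the control mean. Low medians in the TKT cultures and control medians near 0 therefore follow from the method, and no support is drawn from them. The median over the members of log2 CPM minus the control mean of each gene was -0.13, -0.13 and -0.13 in TKT cultures 1 to 3. In the control cultures it was -0.01, 0.01 and 0.01. The number of members below their control mean was 40, 38 and 39 in the TKT cultures and 26, 19 and 20 in the controls. Together the 44 genes took 0.634% ± 0.008 of all counts (SD, n = 3) in TKT cells and 0.695% ± 0.008 (SD, n = 3) in control cells. The same median over all genes with a mean log2 CPM over 1 stayed between -0.01 and 0.00 in every culture.

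**Figure D2:**
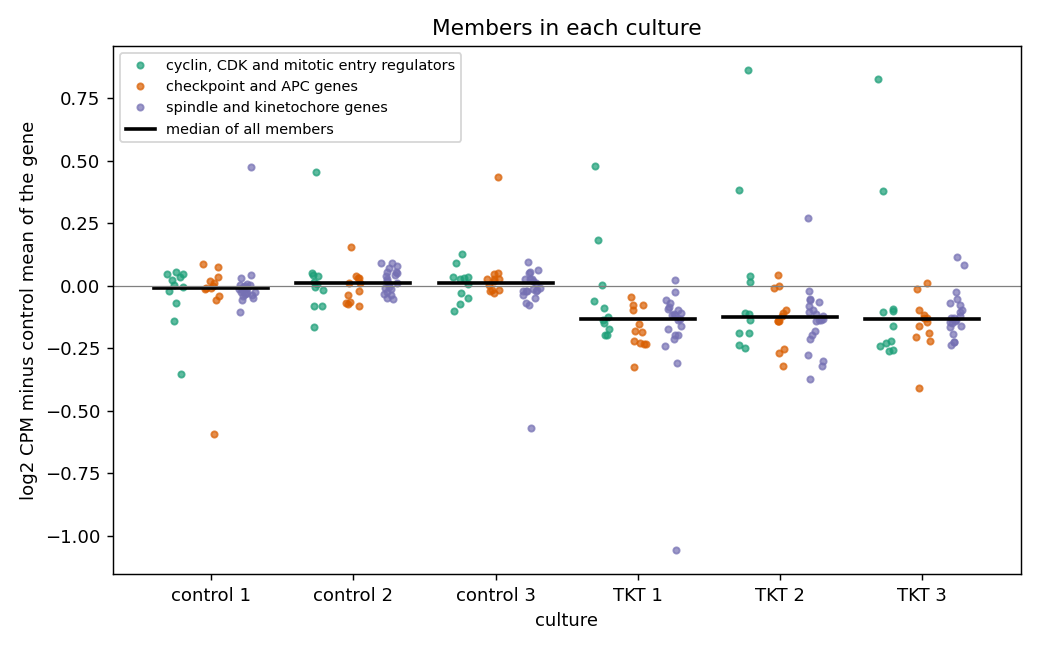
Log2 CPM minus the control mean of the gene (y axis) for the 44 genes in each of the 6 cultures (x axis), with 1 point per gene coloured by role and a black bar at the median. The bars of the TKT cultures sit at -0.13 and those of the control cultures between -0.01 and 0.01.

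Promoter sequence was not used to choose the genes, but the 2 motifs searched were picked because they are known from G2/M genes. Their shares describe this class of genes and do not bear on the TKT comparison. The cell cycle genes homology region (CHR), the element through which MuvB reaches its genes, was searched as TTTGAA or TTCGAA, and the box of the factor NF-Y as CCAAT, on both strands, in windows from 250 bases before to 50 after each RefSeq start (GRCh38.p14). A CHR match was found in 55.6% of the 54 windows of the members, against 16.4% of all 35116 windows, 47.9% of 121 windows of other G2/M genes and 3.70% of 54 windows of DNA replication and G1/S genes. The box of NF-Y was found in 63.0% of the member windows, 57.0% of those of other G2/M genes, 59.3% of those of replication genes and 34.6% of all. The 2 motifs stood together in 44.4% of member windows, 30.6% of other G2/M windows, 3.70% of replication windows and 6.38% of all windows. Of the 41 CHR matches of members, 23 began within the 70 bases before the start site (56.1%). That share was 35.7% for other G2/M genes and 19.4% over all promoters. By gene, 27 of the 38 members with a window had a CHR match (71.1%, against 59.8% of other G2/M genes and 19.5% of all genes). FOXM1, TTK, UBE2C, AURKA, BIRC5 and TPX2 had no window in the table. The median log2 fold change was -0.13 over the genes with a match and -0.14 over the 11 with windows but no match. Of the 27 with a match 12 were called lower, and of the 11 without 6 were, beside 4.94% of all genes. A match is a run of letters and not a measured binding site, and other spellings of the CHR were not searched.

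Among the cyclin, CDK and mitotic entry regulators, 6 of 11 were called lower and 2 higher, beside 4.94% and 5.69% of all genes. The other 3 were not called, and the median log2 fold change of the 11 was -0.12. The B-type and A-type cyclins were among the lower genes. CCNB2, which encodes cyclin B2, had 97.8, 92.7 and 92.3 CPM in the TKT cultures and 109, 109 and 113 in the controls, so the groups did not overlap. Its log2 fold change was -0.23 (standard error 0.05), or 14.5% lower. CCNB1 encodes cyclin B1, the main partner of CDK1 in mitosis, and had 270.1, 277 and 281 CPM on overexpression against 298, 299 and 301 in the controls. The control cultures of CCNB1 lay close together, and the log2 fold change was -0.12 (standard error 0.04). CCNA2, cyclin A2, had 133, 139 and 129 CPM against 146, 157 and 156, a log2 fold change of -0.19 (standard error 0.05).

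CDK1, the kinase that all these cyclins activate, had 100.5, 97.0 and 93.8 CPM in TKT cells and 109, 99.1 and 107 in control cells. The groups overlapped through control culture 2, and CDK1 was not called, with a log2 fold change of -0.11 and a 95% interval of -0.22 to -0.01. PLK1, the kinase that switches on CDC25C and builds the spindle poles, had 153, 153 and 146 CPM against 175, 180.2 and 169. All PLK1 values on overexpression were below those of the controls, with a log2 fold change of -0.22 (standard error 0.04). CDC25B, a phosphatase that removes the inhibitory phosphates of CDK1, was at 79.96, 74.6 and 74.9 CPM against 89.3, 88.2 and 86.1, a log2 fold change of -0.20 (standard error 0.05). Its relative CDC25C had 19.9, 20.3 and 18.4 CPM against 17.9, 20.5 and 21.1, and the values of the groups were interleaved.

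CCNB2, PLK1 and CCNB1 were all called lower. CCNB2 and PLK1 hold a CHR match close to the start. The stretch of CCNB1 before the start holds NF-Y box matches but neither TTTGAA nor TTCGAA. The 130 bases before the start site of each are shown in the direction of transcription, with matches to the CHR or the NF-Y box in capitals. They lie at chr15:59105016-59105145 (plus strand), chr16:23678759-23678888 (plus strand) and chr5:69167020-69167149 (plus strand) of GRCh38.p14.
CCNB2: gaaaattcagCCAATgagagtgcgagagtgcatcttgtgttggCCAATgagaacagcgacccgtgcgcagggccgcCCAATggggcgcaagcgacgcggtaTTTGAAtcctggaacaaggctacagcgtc
PLK1: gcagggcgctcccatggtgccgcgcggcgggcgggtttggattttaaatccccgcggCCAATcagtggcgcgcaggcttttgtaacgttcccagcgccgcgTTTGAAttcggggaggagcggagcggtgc
CCNB1: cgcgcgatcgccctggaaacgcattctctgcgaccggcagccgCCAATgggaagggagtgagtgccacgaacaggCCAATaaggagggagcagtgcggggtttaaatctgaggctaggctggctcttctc

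Of the transcription factors of this programme, FOXM1 had 166, 159 and 156 CPM in TKT cells and 189, 184 and 173 in control cells. Its groups did not overlap and its log2 fold change was -0.18 (standard error 0.04), although FOXM1 shares 15.9% of its exonic bases with ITFG2 on the other strand in GENCODE 29. MYBL2, the B-MYB protein that joins MuvB in S phase, had 328, 353 and 326 CPM against 360.0, 329.8 and 357, with overlap and a log2 fold change of -0.06 (95% interval -0.14 to 0.03). LIN9, the MuvB subunit, went the other way, with 29.6, 34.0 and 34.0 CPM on overexpression and 26.8, 23.3 and 28.5 in controls. Every TKT culture of LIN9 was above every control culture, and its log2 fold change was 0.31 (standard error 0.08), 24.1% higher. CDC14A, a phosphatase that can reverse CDK phosphorylation, was also called higher, from a low level of 2.80, 4.90 and 3.34 CPM to 4.99, 6.52 and 6.36. The lowest TKT culture of CDC14A stood just above the highest control culture, and the log2 fold change was 0.69 (standard error 0.20). Neither call was stable when cultures were left out. LIN9 was not called without TKT culture 2 or 3 or control culture 2, and CDC14A was not called without TKT culture 2 or 3 or control culture 1 or 3. Over the 6 fits that each left out 1 culture, LIN9 lay between 0.24 and 0.38 and CDC14A between 0.53 and 0.95. In limma on log2(FPKM + 1) neither was called, and the value of CDC14A was 0.29.

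Among the 12 checkpoint and APC genes, 5 were called lower and 0 higher, beside 4.94% and 5.69% of all genes, and 7 were not called. Of the 12, 11 lay below 0 (median log2 fold change -0.18). Unadjusted, 7 of the 12 had a p-value under 0.05 in the same edgeR test, beside 23.8% of all genes, and DESeq2 called no member higher besides LIN9 and CDC14A. BUB1, a kinase at unattached kinetochores, had 69.1, 75.3 and 70.5 CPM in TKT cells and 80.7, 80.2 and 82.9 in controls. The groups were clearly apart, with a log2 fold change of -0.18 (standard error 0.05). Its partner BUB1B had 60.9, 70.8 and 70.7 CPM against 71.8, 71.8 and 70.2, so that only TKT culture 1 stood away from the rest, and it was not called. MAD2L1, the MAD2 protein that binds CDC20, had 107, 102 and 101 CPM against 108, 116 and 114, just short of overlap and not called. TTK, the MPS1 kinase upstream of the checkpoint, had 43.0, 38.3 and 44.7 CPM against 47.3, 48.9 and 47.2, a log2 fold change of -0.19 with a 95% interval of -0.31 to -0.06, and missed the call as well.

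MAD2L2, whose protein (REV7) also works in DNA repair and holds back FZR1, had 43.6, 44.8 and 37.2 CPM against 48.0, 49.8 and 50.3 (log2 fold change -0.24, standard error 0.07). CDC20, the activator of the APC at anaphase, had 332, 355 and 325 CPM in TKT cells and 353, 346 and 366 in controls, with overlap. The log2 fold change of CDC20 was -0.07 (95% interval -0.16 to 0.01). UBE2C, the ubiquitin-conjugating enzyme that serves the APC, had 142, 146 and 141 CPM against 165, 154 and 164, without overlap, and a log2 fold change of -0.17 (standard error 0.04). ANAPC2, the cullin subunit of the APC, was at 73.2, 79.2 and 73.9 CPM against 90.7, 81.4 and 86.4. FBXO5 (EMI1), which inhibits the APC before mitosis, was at 57.7, 56.4 and 61.6 CPM against 67.2, 68.7 and 65.9. Thus an APC subunit, an APC enzyme and an APC inhibitor were all called lower, while the log2 fold change of the activator FZR1 (CDH1) was -0.11 and not called.

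Securin and separase, the inhibitor and the protease that cuts cohesin to part sister chromatids, were not called. PTTG1, securin, had 113, 120.4 and 118 CPM in TKT cells and 124, 111 and 115 in controls, a log2 fold change of 0.00 with a 95% interval of -0.10 to 0.11. ESPL1, separase, which securin inhibits, had 31.2, 32.4 and 36.0 CPM against 25.9, 43.5 and 52.9. The control cultures of ESPL1 spanned a wide range, and the value depended on them. Its log2 fold change was -0.30 (95% interval -1.11 to 0.52), -0.06 without control culture 3 and -0.54 without control culture 1, the only one of the 16 alternatives in which it was called. The promoter of PTTG1 is shown because it has 3 NF-Y box matches and neither TTTGAA nor TTCGAA in the 130 bases before the start. The stretch is chr5:160421725-160421854 on the plus strand, with matches in capitals (the last 2 overlap on opposite strands).
PTTG1: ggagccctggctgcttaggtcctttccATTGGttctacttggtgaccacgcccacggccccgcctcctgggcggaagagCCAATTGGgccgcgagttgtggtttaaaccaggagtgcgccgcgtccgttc

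Of the 21 spindle and kinetochore genes, 20 lay below 0, with a median log2 fold change of -0.14. Of the 21, 11 were called lower and 0 higher, beside 4.94% and 5.69% of all genes, and 10 were not called. In the same edgeR test 14 had an unadjusted p-value under 0.05, beside 23.8% of all genes. In 17 of the 21 every TKT culture was below every control culture, a pattern shown by 13.9% of all genes. The lowest fold changes among them were those of TOP2A and CDCA8. TOP2A, the topoisomerase that untangles and condenses chromosomes, had 441, 416 and 455 CPM in TKT cells and 503, 528 and 530.5 in controls. The gap between the groups of TOP2A exceeded the range within either, and the log2 fold change was -0.25 (standard error 0.04), 15.9% lower. MKI67, the source of the Ki-67 antigen used to count dividing cells, had 388, 355 and 397 CPM against 438, 459 and 415 and a log2 fold change of -0.20 (standard error 0.04).

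The chromosomal passenger complex, which corrects wrong attachments, is made of AURKB, INCENP, BIRC5 and CDCA8. All 4 were lower in every TKT culture than in any control, a pattern shown by 13.9% of all genes. CDCA8 (borealin) had 92.6, 100.2 and 97.5 CPM against 110.4, 122 and 112, with a log2 fold change of -0.25 (standard error 0.05). INCENP, the scaffold, had 69.8, 69.0 and 73.1 CPM against 79.3, 84.6 and 76.3. BIRC5 (survivin) had 178, 186 and 167 CPM against 191, 190.0 and 204, a log2 fold change of -0.14 (standard error 0.05). These 3 were called, and AURKB, the kinase itself, was not, with 117, 116 and 107 CPM against 124, 121 and 130.2 and a log2 fold change of -0.14 (95% interval -0.25 to -0.04). AURKB and BIRC5 thus had the same fold change on opposite sides of the threshold, and a difference between them was not tested.

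Among the motors, KIF11 (Eg5, which pushes spindle poles apart) had 117, 116 and 117 CPM in TKT cells and 132, 132 and 129 in controls. The values within each group were close, with a log2 fold change of -0.17 (standard error 0.04). KIF20A, a cytokinesis kinesin, had 84.7, 90.2 and 88.5 CPM against 100.1, 94.5 and 99.4, and KIF2C, which takes microtubules apart at centromeres, 132, 129 and 127 against 142, 141 and 143. Both were called lower. KIF23, the centralspindlin motor, had a log2 fold change of -0.10 with overlapping groups and was not called. TPX2, which activates AURKA on the spindle, had 521, 514 and 517 CPM against 563, 575 and 557 (log2 fold change -0.13, standard error 0.03). KPNA2, an importin that binds TPX2, was at 706, 708 and 689 CPM against 753, 757 and 776. AURKA itself, at 178, 186 and 179.7 CPM against 193, 199 and 187, just avoided overlap, and its log2 fold change of -0.09 was not called. HMMR, a spindle-pole adaptor, had a log2 fold change of -0.11 and was not called either.

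CENPF, a large kinetochore protein made late in the cycle, was the kinetochore gene called lower, with 163, 144 and 171 CPM against 182, 194 and 184. TKT culture 2 was the lowest of its 6 values, and the log2 fold change was -0.23 (standard error 0.05). The other kinetochore members had smaller values and were not called, namely -0.14 for the motor CENPE, -0.08 for NUF2, -0.07 for its partner NDC80 and -0.07 for the centromeric histone CENPA. CENPA had 31.1, 29.9 and 29.6 CPM against 29.4, 31.7 and 33.8, and its groups overlapped. ECT2, the exchange factor that starts the cleavage furrow, was the member of this group above 0, with 266, 257 and 277 CPM against 257, 261 and 266. Its log2 fold change was 0.03 (95% interval -0.05 to 0.11), so a value as low as that of TOP2A lay outside its interval. PRC1, the midzone bundling protein, was listed at 11, 23 and 22 counts in TKT cells and 27, 20 and 14 in controls, and nothing can be read from its log2 fold change of -0.18 (95% interval -1.19 to 0.82). In GENCODE 29, 58.4% of its exonic bases are shared with AC068831.7 or PRC1-AS1, and the part of this overlap in the low count was not tested.

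The promoters of 5 genes called lower are shown as examples that hold a CHR and at least 1 NF-Y box within 200 bases of the start. Members that were not called, such as CDC20 and KIF23, hold both as well, so nothing about the calls is read from these examples. Matches are in capitals, read in the direction of transcription and ending at the last base before the start. CDCA8 lies at chr1:37692386-37692515 (plus strand), INCENP at chr11:62123881-62124010 (plus strand), KIF11 at chr10:92593000-92593129 (plus strand), MKI67 at chr10:128126424-128126553 (minus strand) and TOP2A, in a stretch of 200 bases, at chr17:40417897-40418096 (minus strand). In CDCA8 and MKI67 a CHR and an NF-Y box overlap, and KIF11 and the second match of TOP2A hold the CHR on the opposite strand.
CDCA8: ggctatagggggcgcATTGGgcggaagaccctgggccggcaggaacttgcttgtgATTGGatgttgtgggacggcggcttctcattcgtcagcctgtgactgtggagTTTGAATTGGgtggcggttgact
INCENP: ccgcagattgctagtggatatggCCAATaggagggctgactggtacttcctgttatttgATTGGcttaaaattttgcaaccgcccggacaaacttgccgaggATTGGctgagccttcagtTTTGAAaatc
KIF11: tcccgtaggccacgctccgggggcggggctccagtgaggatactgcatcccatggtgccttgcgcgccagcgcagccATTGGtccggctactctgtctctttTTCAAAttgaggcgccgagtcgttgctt
MKI67: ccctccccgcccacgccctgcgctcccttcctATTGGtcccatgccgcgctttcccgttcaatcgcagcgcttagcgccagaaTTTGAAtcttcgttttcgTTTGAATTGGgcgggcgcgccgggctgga
TOP2A: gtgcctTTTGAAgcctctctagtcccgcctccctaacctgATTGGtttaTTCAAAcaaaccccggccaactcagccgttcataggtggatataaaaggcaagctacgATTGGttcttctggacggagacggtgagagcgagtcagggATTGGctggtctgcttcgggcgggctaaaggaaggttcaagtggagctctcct

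Levels between genes were compared in FPKM, which are scaled by gene length. In control cells CDC20 was the most abundant member at 175 ± 4.06 FPKM (SD, n = 3), followed by TPX2 at 156 ± 3.86. MYBL2, UBE2C and CCNB1 came next at 125 ± 4.93, 125 ± 3.68 and 122 ± 0.931 FPKM, and these 3 overlapped. At the other end were PRC1 at 0.116 ± 0.0398 and CDC14A at 0.563 ± 0.172 FPKM, then ESPL1 at 4.56 ± 1.53. In the whole order, 21 of the 43 pairs of neighbours did not overlap in their 3 control values and 22 did. Seen against abundance, the members called lower held ranks 2 to 37 of the 44, and LIN9 and CDC14A, the members called higher, were among the 5 least abundant per length.

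**Figure D3:**
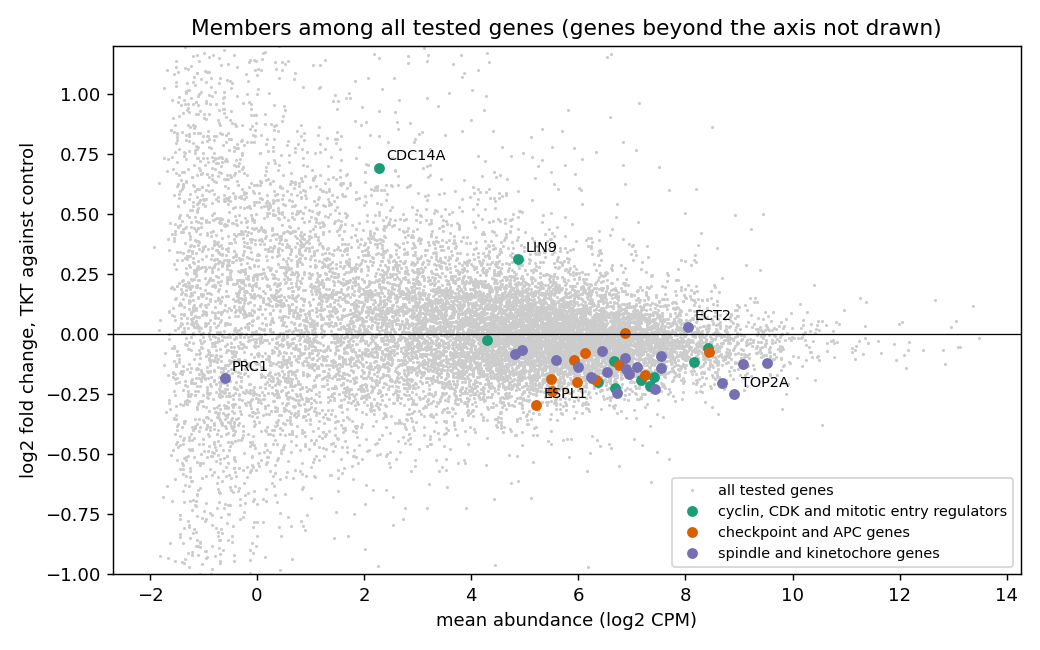
Log2 fold change (y axis) against mean abundance in log2 CPM (x axis) for all 14162 tested genes in grey, apart from those beyond the axis, and for the 44 members coloured by role. Most members form a band between -0.30 and 0, and CDC14A and LIN9 lie above it at 0.69 and 0.31.

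Mitotic genes outside the list were also counted. Of 110 further genes, 109 were in the table and 105 were tested, of which 24 were called lower and 2 higher (24.8% in all, beside 10.6% of all genes). Their median log2 fold change was -0.08. Of the spindle, motor and cytokinesis genes tested, 27 of 27 lay below 0 and 11 were called lower. PIMREG, a mitotic regulator, had 45.2, 41.8 and 45.7 CPM in TKT cells and 56.2, 58.4 and 65.6 in controls. It had the lowest fold change of the 105 genes, and fell by 0.44 on the log2 scale (standard error 0.06, edgeR adjusted p = 4.93e-05). PSRC1, a microtubule-binding protein of the spindle, fell by 0.36 on the log2 scale (standard error 0.07, edgeR adjusted p = 0.00116). KIF4A, KIF14, CEP55, CIT, TACC3, SPAG5, TROAP, CDCA2 and CDCA3 were called lower with values between -0.26 and -0.18.

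Of the 8 condensin genes, whose products fold mitotic chromosomes, NCAPD2, NCAPG and NCAPG2 were called lower and 7 lay below 0. Over all genes 4.94% were called lower and 5.69% higher. NCAPD2 had 279, 275 and 277 CPM against 325, 321 and 308 (log2 fold change -0.20, standard error 0.04, edgeR adjusted p = 0.000821). Of 26 further kinetochore genes, SPC24, CENPI, CENPK and CENPM were called lower, with 17 below 0. Among 20 further CDK and entry regulators, 6 were called lower and 1 higher. The lower ones were PBK, PKMYT1, CDC25A, GTSE1, CDKN3 and CCNF. CCNF, cyclin F, fell by 0.31 on the log2 scale (standard error 0.05, edgeR adjusted p = 0.000576). PBK, a mitotic kinase, fell by 0.33 (standard error 0.05, edgeR adjusted p = 0.000169). The higher one was WEE1, the kinase that keeps CDK1 inactive, with 84.8, 76.8 and 82.9 CPM against 74.4, 71.8 and 69.6 (log2 fold change 0.18, standard error 0.05, edgeR adjusted p = 0.0347). PKMYT1, the membrane-bound kinase of the same family, went the other way at -0.23 (edgeR adjusted p = 0.00682).

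Of 24 further checkpoint and APC genes, 0 were called lower and 1 higher in edgeR, 15 lay below 0, and the median was -0.04. Unadjusted, 6 of the 24 had a p-value under 0.05 in either direction, near the 23.8% of all genes. The higher gene was ZWILCH, part of the complex that brings dynein to kinetochores, with 98.4, 106 and 104 CPM against 91.8, 91.4 and 92.1 (log2 fold change 0.16, standard error 0.05, edgeR adjusted p = 0.0311). ANAPC2, a member, was thus an APC core subunit called lower while none of the other APC subunits listed was, and the difference between them was not tested.

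Genes of the preceding part of the cycle are given beside them. Of 45 tested DNA replication and G1/S genes, 11 were called lower and 1 higher, beside 4.94% and 5.69% of all genes. Of the 45, 37 lay below 0, and their median log2 fold change was -0.09 against -0.14 for the members. A difference between the lists was not tested. The lower genes included RRM2, a subunit of ribonucleotide reductase (log2 fold change -0.28, standard error 0.04, edgeR adjusted p = 1.07e-05), 5 subunits of the MCM helicase and PCNA. The higher one was CCND1, cyclin D1, which acts in G1, with 423, 416 and 415 CPM against 365, 377 and 367 (log2 fold change 0.18, standard error 0.03, edgeR adjusted p = 0.00159). MYC, the transcription factor on which the study centres, had 123, 123 and 122 CPM against 110.0, 99.9 and 108 (log2 fold change 0.21, standard error 0.05, edgeR adjusted p = 0.00530). By qRT-PCR the study reported no change of c-Myc mRNA with TKT, and it places the effect on stability of the protein. The difference from the value here was not tested.

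Calls of members were lost when cultures were left out. Of the 24 called members, all 24 kept their sign in 16 alternatives, and CCNB2, PLK1, CDCA8 and TOP2A were called in all 16. Of the 22 lower members, 10 were still called without TKT culture 1 and 8 without control culture 1, 13 without control culture 3, 15 without TKT culture 3, 17 without TKT culture 2 and 20 without control culture 2. Over these 6 fits the median log2 fold change of the members lay between -0.15 and -0.13.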

How the data were processed

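Total RNA of 6 cultures was sequenced as paired-end reads. Per the labels and the study's Methods, fastp 0.22.0 served for read trimming, HISAT2 2.1.0 for alignment to hg38 and featureCounts for gene counts. The annotation and the strand and multi-mapping options are not given in the sources used here. The deposited counts are raw, and the deposited FPKM are scaled by the authors to gene length and depth. No per-sample column was left unused (0).

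Counts were tested in R 4.3.3 with edgeR 4.0.16 (filterByExpr with a minimum count of 10, TMM, robust quasi-likelihood fit, no pairing) over 14162 genes, with Benjamini-Hochberg adjustment over all of them, and called at 0.05. The study's limit of an absolute log2 fold change over 1 was also applied. The fit was tested on simulated counts. The common biological coefficient of variation was 0.113, which with 3 cultures a group sets the precision. P-values measure the spread between these cultures, which may be technical. Standard errors and 95% intervals come from the fit, and SDs are over cultures.

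The members, role groups and further lists were chosen with earlier results of these data known. Every member is named. The rule for values per culture took called members, the 2 highest and 2 lowest of each role group and a fixed set of core genes; any further ones were added after they were seen, and of the other lists only called genes are named. Gene models are GENCODE 29, promoters RefSeq. Alternatives were DESeq2 1.42.0, limma 3.58.1 (voom, and log2(FPKM + 1) or log2(FPKM + 0.1)), other scalings, filters and thresholds, a replicate block and each culture left out. Deviations of same-numbered cultures correlated between -0.03 and 0.02, so the numbers do not pair the cultures.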

Additional observations from a re-analysis of the deposited data

How the results depend on the processing

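The 704 member values of the 16 alternatives each lay within 1 SD of the value reported (the larger of the SDs of log2 CPM in the 2 groups). The alternatives reuse the same cultures, so a value could hardly leave this range, and no stability is read from it. That SD is wide for CDC14A, whose log2 fold change went from 0.69 to 0.29 in limma on log2(FPKM + 1). It is wide also for ESPL1, whose values ran from -0.54 to -0.06. Of the 24 called members, 0 changed sign. The number of calls moved more. With the replicate number as a block, which the data do not pair, 5 members were called lower and 1 higher, with 11 lower and 0 higher among the other G2/M genes, 2 lower replication genes, and 431 higher and 266 lower over all genes. In limma on log2(FPKM + 1) and on log2(FPKM + 0.1), 10 members were called lower and 0 higher in each, with 12 and 13 lower and 1 higher other G2/M genes, 6 lower replication genes, and 457 and 474 higher and 295 and 316 lower genes in all. The median of the members was -0.13 with log2(FPKM + 1) and -0.13 with upper quartile factors. In limma-voom 0 members and 1 other G2/M gene were called higher. At an adjusted p-value under 0.01, 6 members were lower and 0 higher, beside 12 lower and 0 higher other G2/M genes, 3 lower replication genes, and 405 higher and 274 lower in all. With an absolute log2 fold change over 1, 0 genes of these lists were called in either direction, against 99 higher and 4 lower in all. With 1 culture left out at a time, 9 to 21 members were lower and 0 to 2 higher, 12 to 21 other G2/M genes lower and 0 to 2 higher, 4 to 11 replication genes lower, and 457 to 820 higher and 334 to 766 lower genes in all, and the median of the members lay between -0.15 and -0.13. Chosen after seeing the data, leaving out the 9 members that share over 5% of their exonic bases with another gene gave 18 lower and 1 higher and a median of -0.14, as did leaving out PRC1 for the median. A culture left out in either group moved the count of lower members by over 1.5 times for TKT culture 1 (10) and control cultures 1 (9) and 3 (13). The cause of these changes was not tested. In these fits the values of the culture left out and the smaller number of cultures cannot be told apart.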
